A study of Mus musculus with 9 samples.

Results

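The genes described are 50 factors that build ribosomes in the nucleolus, chosen by name from the 24756 gene rows of a count table. They were chosen with earlier results of these data known, so the shares of members called below describe a chosen list. All 50 had enough reads to be tested, among 10215 tested genes in all. By textbook role they were sorted into 8 proteins of the small nucleolar ribonucleoproteins (snoRNPs), 18 factors of the small ribosomal subunit, 18 factors of the large subunit and 6 nucleolar proteins with several roles. The class of Rrp9, Nolc1, Rrp12, Ddx18 and Rrp1b is less certain.

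Ribosomes are assembled in the nucleolus from a long precursor RNA, which is modified, folded, cut and packed with ribosomal proteins. SnoRNPs carry guide RNAs that direct methylation or pseudouridylation of the precursor, the small-subunit processome and the large-subunit assembly factors then shape the 2 particles separately, and GTPases, helicases and nucleases release them to the cytoplasm. Rapidly dividing leukaemia cells make many ribosomes, and the transcription factor MYC is known to drive many of these genes.

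Expression was measured by 3' mRNA sequencing in a murine line of acute myeloid leukaemia, made from fetal liver cells with 2 retroviral vectors. One makes the fusion protein MLL-AF9 constitutively together with luciferase, and the other makes the signalling receptor FLT3-ITD, with DsRed, only while doxycycline is present. All 9 libraries therefore carried MLL-AF9. The 3 groups of 3 libraries were cells left in doxycycline at 1 µg/mL (ON), and cells washed with PBS and grown without the drug for 24 h (OFF24) or 48 h (OFF48). The labels give the wash for the OFF cells alone, so washing and loss of the drug cannot be told apart. Whether replicates were separate cultures is not in the labels, and p-values rest on the spread between libraries, which may be technical.

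Total counts ran from 1329296 in OFF48 replicate 2 to 4038456 in ON replicate 2. Levels are given as CPM (library-size-scaled read counts, adjusted by the TMM method). Before that adjustment, a gene with a count of 0 could lie at up to 0.743 CPM at the greatest depth and 2.26 CPM at the lowest, counting error only. ON replicate 2 stood apart from its group, with a chi-square per degree of freedom of 6.66 and 6.99 against the other ON libraries, which differed from each other by 2.1. Its log2 CPM correlations with them were 0.982 and 0.977, against 0.985 between those. OFF48 replicate 2 had lower correlations with its group, 0.967 and 0.962, against 0.983 between the other OFF48 libraries. The Flt3 row, at 2 to 10 counts per library, was too low for testing and gave no measure of the transgene. Summed markers of myeloid cells, 15 genes of which 14 were tested, lay at 3470 to 3780 CPM in ON, at 5940 to 6350 in OFF24 and at 7830 to 8610 in OFF48. Markers of erythroid, lymphoid, and hepatocyte or stromal cells summed to at most 7 CPM in any library. Hbb-bt, Hbb-bs, Epor, Alas2, Ncr1, Alb, Ttr and Cdh5 were at 0 in all libraries. Megakaryocyte and mast cell markers summed to 5.61 to 21.7 CPM, with Ppbp, Cpa3 and Fcer1a at 0. The part of these changes in myeloid markers in the results below was not tested. In RNA from a whole culture, fewer cells of a type and less RNA per cell cannot be told apart.

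Nearly all of the factors fell when the drug was withdrawn, and none rose. At 24 h 47 of 50 were lower than in ON at an edgeR adjusted p under 0.05, and 17.4% of all tested genes were lower by the same rule, while 0 members and 17.8% of all genes were higher. At 48 h 48 of 50 were lower, against 23.9% of all genes, and 0 were higher, against 23.4%. The median log2 fold change of the 50 was -1.08 at 24 h and -1.36 at 48 h, while the median of all tested genes was 0.03 and 0.01. A fall of at least 2-fold was called for 30 members at 24 h and 33 at 48 h, against 4.33% and 8.82% of all genes. The fold change of every member was negative at both times, and neither DESeq2 nor limma called a member higher. Both comparisons use the same ON libraries. At both times 46 members were called lower, a share of 92%, against 13.8% of all genes.

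The remaining 4 members were Utp20, called at 24 h only, Npm1 and Utp14a, called at 48 h only, and Imp4, called at neither time. In 44 members (88%) the lowest ON library lay above all 6 OFF libraries, which was so for 17.1% of all tested genes. All 3 OFF24 libraries lay below all ON libraries in 46 members (23.8% of all genes), and all 3 OFF48 libraries did in 47 (27% of all genes). Among all tested genes ranked by fold change, 32 members stood in the lowest 5% at 24 h and 26 at 48 h. The summed level of the 50 averaged 6252 ± 50.2 CPM in ON (SD, n = 3), against 3522 ± 127 for OFF24 and 2412 ± 138 for OFF48. That is 56.3% and 38.6% of the ON sum, in which the most abundant genes weigh most.

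**Figure D1:**
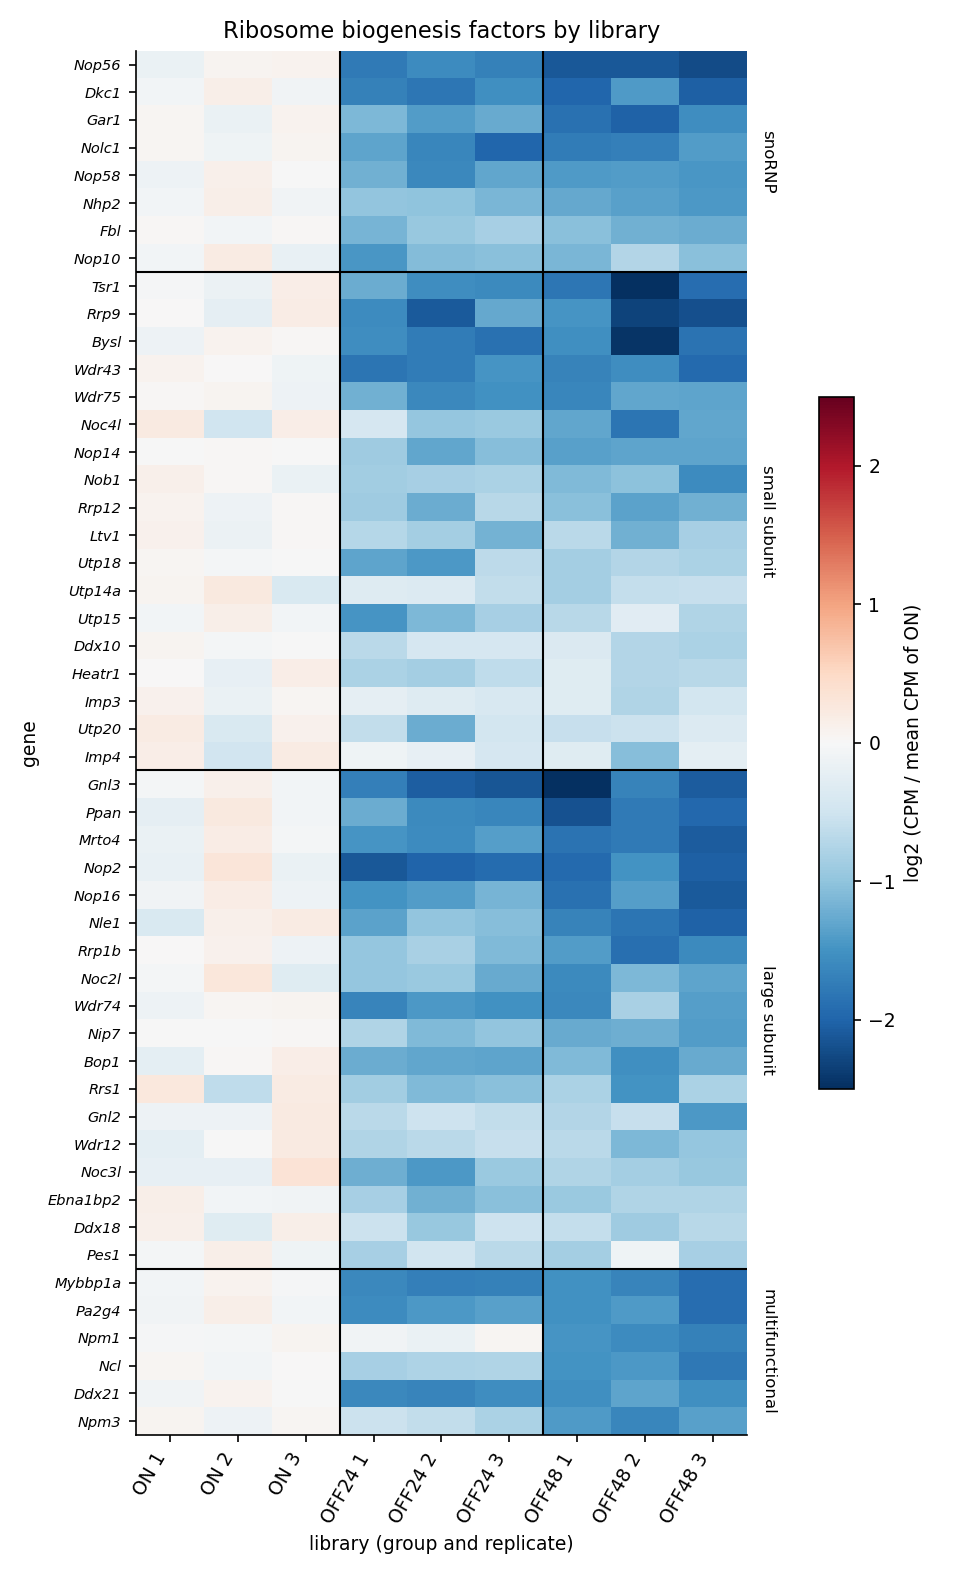
Level of each of the 50 factors (rows, by class) in each of the 9 libraries (columns), as log2 of the CPM over the gene's mean CPM in ON, with blue for lower and red for higher. The OFF libraries are blue in nearly all rows, except Npm1, which is near white in OFF24, and pale rows such as Imp4.

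Without ON replicate 2 and OFF48 replicate 2, a choice made after seeing the data, 48 of 50 members were called lower at 24 h and 49 at 48 h. In that setting 18.3% and 23.1% of all tested genes were called lower. Of the 50 genes, 12 have a stretch of at least 100 bases with at least 95% identity to another gene in the last 400 bases of a transcript. They are Nop56, Nop58, Fbl, Dkc1, Bysl, Tsr1, Wdr12, Ddx18, Noc2l, Mrto4, Npm1 and Mybbp1a. In Bysl, Tsr1 and Mybbp1a the only match is the gene that overlaps that end on the other strand. In the rest, reads could be split or lost, depending on how multiply mapped reads were counted. An overlap concerns 11 members, some of them among these 12, whose 3' end lies under a gene on the other strand. Bysl, for example, lies under Ccnd3, which held 26261 counts against 576 for Bysl. The strand setting of the counting is not given in the sources used here. Counts of these genes are therefore uncertain. Of the 38 members without a matching 3' end, 36 were called lower at each time, against 17.4% and 23.9% of all tested genes. Among these 38, Nhp2, Utp14a, Bop1, Gnl2 and Nle1 still lie under a gene on the other strand.

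The gene starts were searched for short sequence motifs. RefSeq promoter windows on GRCm38.p6, from 250 bases before the start to 50 after it, were found for 44 members (48 windows), and not for Bop1, Fbl, Gnl2, Npm1, Rrp12 and Rrs1. The E-box CACGTG, the letters that MYC and related factors are known to bind, was in 10 of 48 windows (20.8%), against 10.4% of the windows of tested genes and 7.15% of all windows. Windows of the other ribosome assembly genes described below held it in 18.8%, a share near that of the members. Of those 10, 7 held it after the start, and before the start the share was 6.25%, against 8.69% of windows of tested genes. Because members were chosen by name, with earlier results of these data known, these shares are descriptions without a test. The 3 members with CACGTG before the start are shown because their changes differ widely: Imp4 was called at neither time and Nop2 had the largest fall of the 50 at 24 h. Sequences run 5' to 3' on the gene's strand, and capitals mark CACGTG and, in Nop2, also CCGGAAG.
Imp4, chr1:34439661-34439760, plus strand: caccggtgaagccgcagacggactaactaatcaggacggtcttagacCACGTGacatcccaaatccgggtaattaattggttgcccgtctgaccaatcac
Nop2, chr6:125131776-125131875, plus strand: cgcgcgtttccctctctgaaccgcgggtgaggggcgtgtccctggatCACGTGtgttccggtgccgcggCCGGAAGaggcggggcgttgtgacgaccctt
Utp18, chr11:93885767-93885866, minus strand: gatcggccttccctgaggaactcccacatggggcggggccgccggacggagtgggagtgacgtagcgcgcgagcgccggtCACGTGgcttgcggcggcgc

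The E-box begins 121 bases before the start in Imp4, 60 in Nop2 and 20 in Utp18. The 10 members with CACGTG anywhere in the window had a median log2 fold change of -1.08 at 24 h and -1.26 at 48 h. The 34 members without it had medians of -1.11 and -1.41, and the difference was not tested. By class, CACGTG was in 0 of 7 windows of snoRNP proteins, 6 of 17 of small-subunit factors, 3 of 19 of large-subunit factors and 1 of 5 of the multifunctional proteins. An absent match says only that these letters are not in the window.

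CCGGAAG, a form of the site of ETS-family factors, read on both strands, was in 16 of 48 member windows (33.3%), against 19.7% of windows of tested genes and 8.86% of all. Windows of the other ribosome assembly genes held it in 38.6%, more than the members. Before the start the share was 20.8% in member windows, 15.2% in windows of tested genes and 31.7% in those of the other assembly genes. In the snoRNP class, which had no CACGTG, 3 windows held it, each before the start, and they are shown for comparison with the 3 above. Capitals mark CCGGAAG, or CTTCCGG where it lies on the other strand. The palindromic start-site motif of the factor ZBTB33 was in 0 of 48 member windows and in 1.07% of windows of tested genes.
Gar1, chr3:129831397-129831496, minus strand: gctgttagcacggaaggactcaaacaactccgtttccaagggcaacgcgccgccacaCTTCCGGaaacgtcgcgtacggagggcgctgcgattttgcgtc
Nhp2, chr11:51619673-51619772, plus strand: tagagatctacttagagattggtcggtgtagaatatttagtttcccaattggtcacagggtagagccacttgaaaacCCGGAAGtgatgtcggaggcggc
Nolc1, chr19:46075747-46075846, plus strand: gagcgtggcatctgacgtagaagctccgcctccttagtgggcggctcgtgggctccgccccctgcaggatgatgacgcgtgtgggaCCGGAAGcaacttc

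Against 17.4% of all tested genes at 24 h and 23.9% at 48 h, all 8 snoRNP proteins were called lower at both times. Their median log2 fold changes were -1.31 at 24 h and -1.50 at 48 h. Their summed level was 40.5% of that in ON at 24 h and 37.8% at 48 h. Nop56, a core protein of the box C/D particles that guide methylation, lies at chr2:130274430-130279313 (plus strand, GRCm38) and hosts 5 annotated snoRNA genes. It read 174, 203 and 208 CPM in ON, 57.3, 65.6 and 60.2 in OFF24, and 45.0, 45.0 and 41.4 in OFF48. The 3 groups did not overlap, and the levels stepped down from ON to OFF24 to OFF48. Its log2 fold change was -1.67 ± 0.11 (approximate SE) at 24 h (edgeR adjusted p = 3.35e-09) and -2.16 ± 0.12 at 48 h (edgeR adjusted p = 4.39e-11). Nop58, its partner in the same particle, fell by 1.36 and 1.42 on the log2 scale.

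Fbl, fibrillarin, the methyltransferase of box C/D particles, read 281, 261 and 280 CPM in ON. It read 122, 143 and 155 in OFF24, and 134, 119 and 116 in OFF48. Both OFF groups lay below ON and overlapped each other. Fbl had log2 fold changes of -0.97 ± 0.11 at 24 h (edgeR adjusted p = 1.41e-06) and -1.16 ± 0.11 at 48 h (edgeR adjusted p = 6.68e-08).

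The box H/ACA particles, which guide pseudouridylation, contain Dkc1, Nhp2, Nop10 and Gar1. Dkc1, dyskerin, the pseudouridine synthase itself, read 186, 217 and 184 CPM in ON, 60.6, 55.6 and 67.6 in OFF24, and 49.3, 73.5 and 47.5 in OFF48. Every OFF library was far below ON, while OFF48 replicate 2 was above all OFF24 libraries. Dkc1 fell by 1.67 ± 0.14 on the log2 scale at 24 h (edgeR adjusted p = 3.87e-08) and by 1.84 ± 0.14 at 48 h (edgeR adjusted p = 4.58e-09).

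Nop10, a small structural protein of these particles, had the smallest fall of the class at 48 h. It read 273, 328 and 252 CPM in ON, 104, 134 and 138 in OFF24, and 130, 171 and 138 in OFF48. The OFF groups overlapped each other and lay below ON, with log2 fold changes of -1.18 ± 0.13 (edgeR adjusted p = 1.72e-06) and -0.98 ± 0.13 (edgeR adjusted p = 6.75e-06). Nhp2, which binds the guide RNA, fell by 1.05 and 1.36. Gar1, which aids turnover at the catalytic site, fell by 1.25 and 1.75. Nolc1, a nucleolar chaperone of snoRNPs, fell by 1.64 and 1.59.

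Against 17.4% of all tested genes at 24 h and 23.9% at 48 h, 16 of the 18 small-subunit factors were called lower at each time. Their median log2 fold changes were -0.92 at 24 h and -0.998 at 48 h. Their summed level was 55% of ON at 24 h and 50.4% at 48 h. Falls of at least 2-fold were called for 8 and 9 of them, against 4.33% and 8.82% of all tested genes. The 3 members other than Npm1 that missed a call at 1 or both times (Imp4, Utp14a and Utp20) are in this class. Whether the class differs from the others was not tested.

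Tsr1, a GTPase-like protein of the late small-subunit precursor, had the largest fall of the class at 48 h. It read 47.2, 43.2 and 54.0 CPM in ON, 20.5, 16.3 and 16.1 in OFF24, and 13.8, 8.25 and 12.8 in OFF48. The 3 groups did not overlap. The log2 fold change was -1.46 ± 0.16 at 24 h (edgeR adjusted p = 1.72e-06) and -1.96 ± 0.18 at 48 h (edgeR adjusted p = 4.2e-08). The other late factors fell too: Bysl by 1.72 and 1.80, Nob1, the nuclease of the last cut, by 0.84 and 1.27, Rrp12 by 0.92 and 1.16, and Ltv1 by 0.91 and 0.83.

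Rrp9, which belongs to the U3 snoRNP at the centre of the processome, read 18.9, 16.0 and 21.5 CPM in ON. It read 6.27, 4.39 and 7.75 in OFF24 and 6.71, 3.75 and 4.08 in OFF48, where replicate 2 held 5 counts. The OFF groups overlapped each other and lay below ON. Rrp9 stood at a log2 fold change of -1.59 ± 0.25 at 24 h (edgeR adjusted p = 6.09e-05) and -1.88 ± 0.27 at 48 h (edgeR adjusted p = 1.04e-05).

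Imp3 and Imp4, partners in a U3-associated complex, had the smallest changes at 24 h in the class. Imp4 read 62.2, 39.8 and 63.7 CPM in ON, 51.0, 47.7 and 41.4 in OFF24, and 45.0, 26.3 and 46.9 in OFF48. ON replicate 2 was below every OFF24 library, and OFF48 replicate 2 was below every other library. On the log2 scale the difference of Imp4 from ON was -0.24 ± 0.19 at 24 h (edgeR adjusted p = 0.351) and -0.41 ± 0.20 at 48 h (edgeR adjusted p = 0.0977). Without ON replicate 2 the edgeR adjusted p of Imp4 was 0.0333 at 24 h and 0.00499 at 48 h, and with the replicate number as a block it was 0.0154 at 48 h. Imp3 fell by 0.32 at 24 h (edgeR adjusted p = 0.0469) and by 0.47 at 48 h (edgeR adjusted p = 0.00367). The 24 h call of Imp3 was lost on leaving out any 1 of 5 libraries, with edgeR adjusted p-values up to 0.154.

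The factors that bind the precursor RNA first, in the UTP-A complex, are Wdr43, Wdr75, Heatr1 and Utp15. Wdr43 fell by 1.67 and 1.73 on the log2 scale and Wdr75 by 1.46 and 1.43. Heatr1 fell by 0.74 and 0.54, and Utp15 by 1.10 and 0.62. The call of Utp15 at 48 h was lost without OFF48 replicate 3 (edgeR adjusted p = 0.0681). Utp18, of the UTP-B complex, fell by 1.06 and 0.79.

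Utp20, a large scaffold protein of the processome, read 21.2, 14.3 and 20.0 CPM in ON, 12.1, 7.85 and 13.4 in OFF24, and 12.4, 12.8 and 14.6 in OFF48. ON replicate 2 was the lowest of its group and overlapped OFF48. Utp20 differed from ON by a log2 value of -0.73 ± 0.22 at 24 h (edgeR adjusted p = 0.0155) and -0.46 ± 0.22 at 48 h (edgeR adjusted p = 0.0991). The call at 24 h was lost without ON replicate 1 (0.0713) or OFF24 replicate 2 (0.0965), and at 48 h the gene was called without ON replicate 2 (0.0267) and with the replicate block (0.0319).

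Utp14a, a cofactor of the helicase that frees U3 from the precursor, read 28.3, 32.2 and 20.8 CPM in ON. It read 21.7, 21.3 and 17.6 in OFF24 and 15.1, 18.0 and 18.1 in OFF48. ON replicate 3 fell within OFF24 and above OFF48. Utp14a differed from ON by a log2 value of -0.45 ± 0.18 at 24 h (edgeR adjusted p = 0.056) and -0.70 ± 0.19 at 48 h (edgeR adjusted p = 0.00496). Without ON replicate 3 the 24 h value was called (0.015). Of the rest of the class, Nop14 and its partner Noc4l fell by 1.09 and 0.76 at 24 h and by 1.34 and 1.39 at 48 h, and the helicase Ddx10 fell by 0.49 and 0.60.

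Against 17.4% of all tested genes at 24 h and 23.9% at 48 h, all 18 large-subunit factors were called lower at both times. Their median log2 fold changes were -1.08 at 24 h and -1.31 at 48 h. Their summed level was 47.3% of ON at 24 h and 41.7% at 48 h. Falls of at least 2-fold were called for 12 and 11 of them, against 4.33% and 8.82% of all tested genes.

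Gnl3, nucleostemin, a nucleolar GTPase enriched in stem and tumour cells, lies at chr14:31012433-31019152 (minus strand, GRCm38) and hosts 3 snoRNA genes. It read 66.8, 75.2 and 65.8 CPM in ON, 21.3, 16.6 and 15.8 in OFF24, and 9.39, 21.8 and 16.3 in OFF48. Both OFF groups lay below ON, and OFF48 spanned all of OFF24. The log2 fold change was -1.97 ± 0.18 at 24 h (edgeR adjusted p = 1.44e-07) and -2.23 ± 0.19 at 48 h (edgeR adjusted p = 2.21e-08), the largest fall of the 50 at 48 h.

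Ppan, a factor of the early large-subunit precursor, read 45.4, 63.4 and 51.2 CPM in ON. It read 22.6, 17.6 and 17.3 in OFF24 and 11.7, 15.8 and 13.7 in OFF48. The groups did not overlap, and the log2 fold change was -1.50 ± 0.17 at 24 h (edgeR adjusted p = 1.38e-06) and -1.995 ± 0.18 at 48 h (edgeR adjusted p = 3.9e-08). Nop2, a methyltransferase of the large ribosomal RNA, whose promoter stretch is printed above, fell by 2.01 at 24 h, the largest fall of the 50 at that time, and by 1.87 at 48 h.

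The PeBoW complex, needed to process the large-subunit precursor, consists of Pes1, Bop1 and Wdr12. Pes1 read 65.0, 75.2 and 62.6 CPM in ON, 38.0, 48.7 and 42.3 in OFF24, and 37.6, 63.0 and 37.9 in OFF48. OFF48 replicate 2 reached the level of ON replicate 3. The log2 fold change was -0.65 ± 0.16 at 24 h (edgeR adjusted p = 0.00377) and -0.63 ± 0.16 at 48 h (edgeR adjusted p = 0.00379), the smallest fall of the class at 48 h.

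Bop1 read 18.4, 22.1 and 24.3 CPM in ON, 9.20, 8.79 and 8.64 in OFF24, and 10.1, 7.50 and 9.04 in OFF48. The OFF groups overlapped each other and lay well below ON. Bop1 fell by 1.27 ± 0.20 at 24 h (edgeR adjusted p = 5.56e-05) and by 1.23 ± 0.20 at 48 h (edgeR adjusted p = 5.27e-05). Wdr12 fell by 0.65 and 0.88.

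Rrp1b, which targets a protein phosphatase to the nucleolus, read 104, 110.5 and 93.4 CPM in ON, 52.3, 58.4 and 48.0 in OFF24, and 38.9, 27.8 and 34.1 in OFF48. The groups did not overlap. It fell by 0.96 ± 0.12 at 24 h (edgeR adjusted p = 8.87e-06) and by 1.58 ± 0.13 at 48 h (edgeR adjusted p = 1.81e-08).

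Of the other large-subunit factors, Mrto4, which holds the place of the ribosomal stalk, fell by 1.47 and 1.91 on the log2 scale. Nop16 fell by 1.34 and 1.83, Nle1 by 1.09 and 1.81, Wdr74 by 1.51 and 1.32, Noc2l by 1.06 and 1.37, and Nip7 by 0.95 and 1.3. Ebna1bp2 fell by 1.02 and 0.82, the GTPase Gnl2 by 0.59 and 0.92, and the helicase Ddx18 by 0.65 and 0.70. Rrs1, which helps to dock the 5S particle, fell by 1.0 and 0.94, with ON replicate 2 at 98.0 CPM against 181 and 175 in the other ON libraries. Noc3l fell by 1.13 and 0.82 and had the lowest mean CPM of the 50 in ON, 6.78 ± 1.56. Its 48 h call (edgeR adjusted p = 0.0419) was lost on leaving out any of 8 libraries, with edgeR adjusted p-values of 0.0511 to 0.15.

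**Figure D2:**
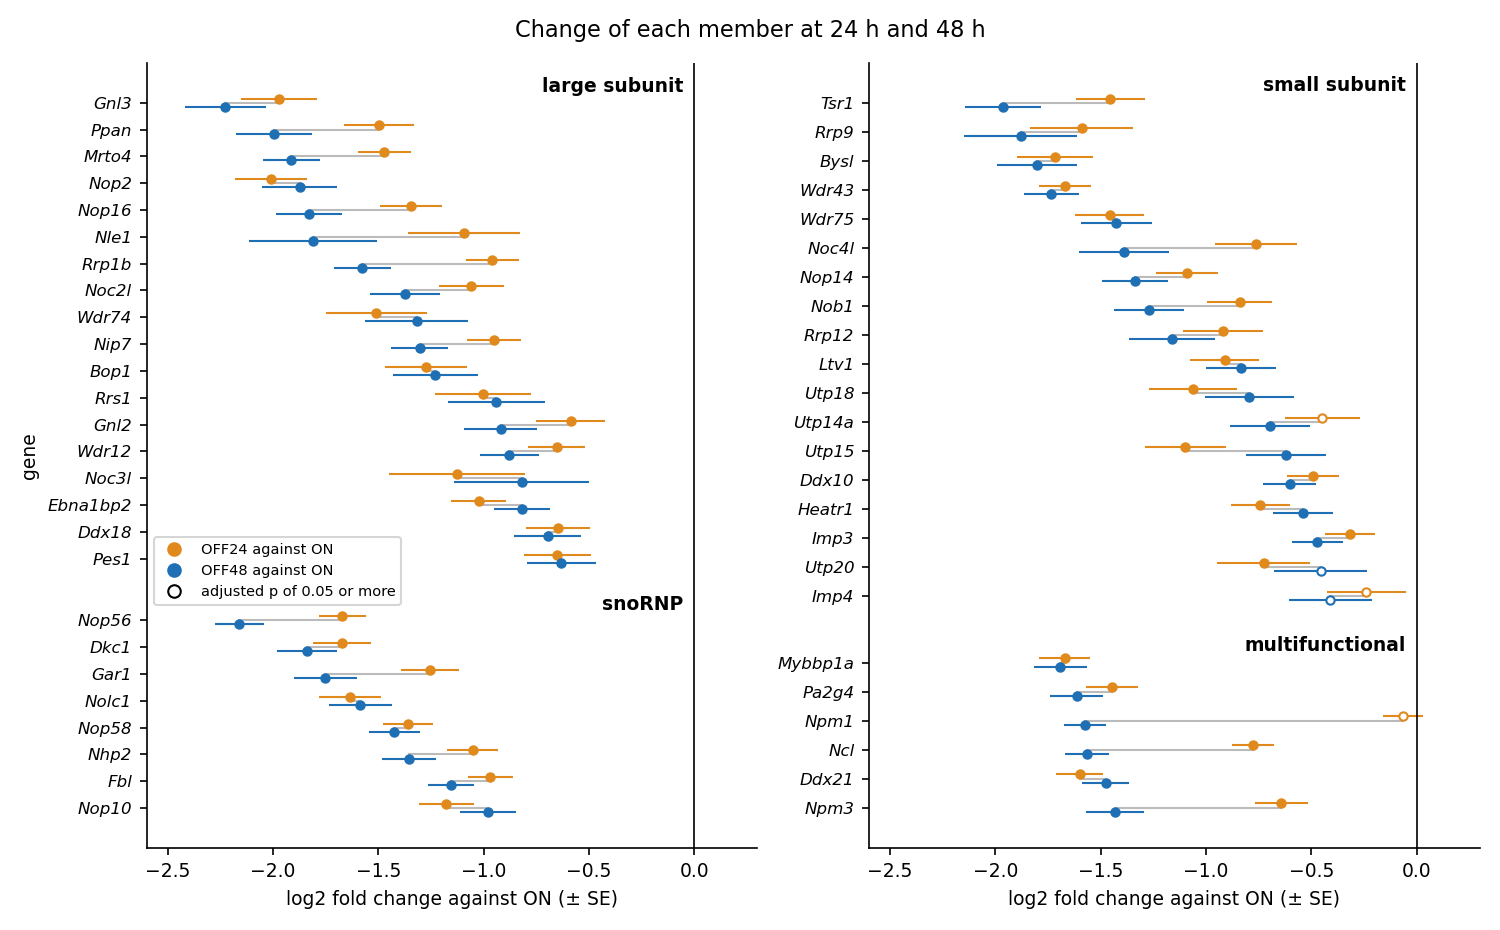
Log2 fold change against ON (x axis) of each factor (y axis, by class) in OFF24 (orange) and OFF48 (blue), with bars of 1 approximate SE and open points for an edgeR adjusted p of 0.05 or more. Open points are Imp4 at both times, Utp14a and Npm1 at 24 h, and Utp20 at 48 h, and the longest grey line between both times is that of Npm1.

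The 6 multifunctional proteins were all called lower at 48 h (23.9% of all tested genes), with a narrow range of -1.69 to -1.43 and a median of -1.57. At 24 h 5 of them were called lower (17.4% of all tested genes), and the median of the 6 was -1.11. Their summed level was 68.5% of ON at 24 h and 33.7% at 48 h, a sum in which Npm1 weighs most.

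Npm1, nucleophosmin, an abundant nucleolar chaperone that is often mutated in human acute myeloid leukaemia, lies at chr11:33152287-33163206 (minus strand, GRCm38). It read 1200, 1182 and 1269 CPM in ON, 1149, 1085 and 1259 in OFF24, and 439, 412 and 376 in OFF48. OFF24 overlapped ON, and all OFF48 libraries lay far below both. Against ON, Npm1 differed by a log2 value of -0.06 ± 0.10 at 24 h (edgeR adjusted p = 0.637) and -1.57 ± 0.10 at 48 h (edgeR adjusted p = 2.91e-10). OFF48 was 1.51 ± 0.10 below OFF24 on the log2 scale, a log2 difference of -1.51 (edgeR adjusted p = 1.52e-09). Its 3' end matches 6 processed pseudogenes, none of which is named in the count table.

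Ncl, nucleolin, which binds nascent precursor RNA, lies at chr1:86344719-86359400 (minus strand, GRCm38) and hosts 3 snoRNA genes. It read 751, 692 and 734 CPM in ON, 410.5, 427 and 433 in OFF24, and 259, 269 and 211 in OFF48. The groups did not overlap, and about as much of its log2 fall came in the second day as in the first. It fell by 0.78 ± 0.10 at 24 h (edgeR adjusted p = 9.23e-06) and by 1.56 ± 0.10 at 48 h (edgeR adjusted p = 7.07e-10).

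Npm3, a relative of nucleophosmin, read 66.1, 57.5 and 64.8 CPM in ON, 43.5, 41.1 and 36.3 in OFF24, and 23.5, 20.3 and 24.5 in OFF48. It stepped down without overlap, by 0.64 ± 0.13 at 24 h (edgeR adjusted p = 0.000587) and by 1.43 ± 0.14 at 48 h (edgeR adjusted p = 8.97e-08).

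Mybbp1a, a nucleolar protein that binds MYB and regulates RNA polymerase I, read 103, 114 and 106 CPM in ON. It read 35.1, 33.0 and 33.7 in OFF24 and 37.6, 34.5 and 28.9 in OFF48. The OFF groups overlapped at a level below all ON libraries. Mybbp1a had log2 fold changes of -1.67 ± 0.12 at 24 h (edgeR adjusted p = 9.32e-09) and -1.69 ± 0.13 at 48 h (edgeR adjusted p = 2.74e-09).

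Pa2g4, an RNA-binding protein of growth control, read 468.5, 550.2 and 471 CPM in ON, 168, 184 and 194 in OFF24, and 174, 185 and 132 in OFF48. All OFF libraries lay below ON, with OFF48 replicate 3 the lowest. It fell by 1.45 ± 0.12 at 24 h (edgeR adjusted p = 5.26e-08) and by 1.61 ± 0.12 at 48 h (edgeR adjusted p = 3.96e-09). The helicase Ddx21 fell by 1.6 and 1.48.

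The comparison of OFF48 with OFF24 tests whether the change from ON differed between the times. Only 7 of 50 members were called, all lower at 48 h, against 11.2% of all tested genes called lower, a share near the 14% of the members, and 0 were called higher, against 9.99% of all genes. They were Npm1 (-1.51), Ncl (-0.79), Npm3 (-0.79), Rrp1b (-0.62), Gar1 (-0.50), Nop56 (-0.49) and Mrto4 (-0.44), all as log2 differences of OFF48 from OFF24. By class these are 3 of 6 multifunctional proteins, 2 of 18 large-subunit factors, 2 of 8 snoRNP proteins and 0 of 18 small-subunit factors. The 0 of 18 became 2 with the replicate block and 1 under upper quartile scaling, without the filter on low counts, with only the groups compared in the fit or without ON replicate 2, and it was 0 with DESeq2 and limma-voom. At an unadjusted edgeR p under 0.05, 14 of the 50 were lower (17.3% of all tested genes) and 1, Utp15, was higher (16.4% of all genes), and 3 of the lower ones were small-subunit factors. The median of the 50 was -0.17, against 0.01 for all tested genes, and 34 members were lower and 16 higher at 48 h than at 24 h. All 3 OFF48 libraries lay below all OFF24 libraries in 15 members, against 19.8% of all genes, and above them in 2, Utp15 and Ddx21, against 18.2% of all genes.

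**Figure D3:**
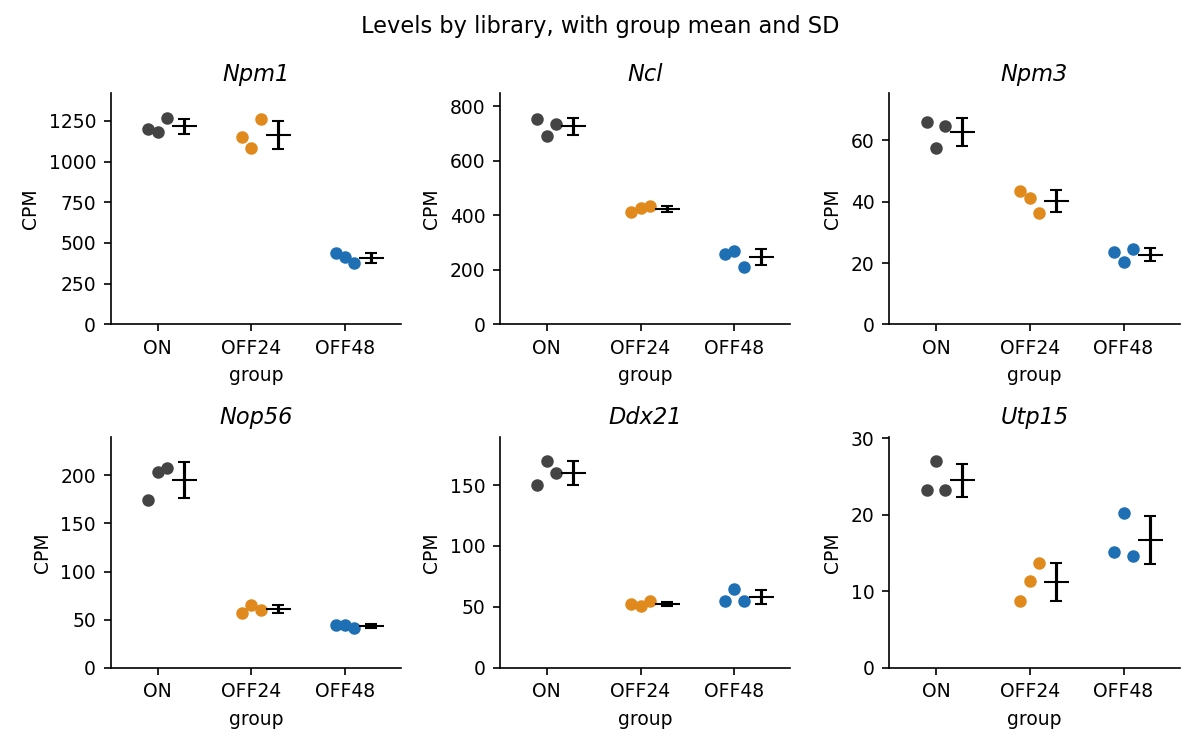
CPM (y axis) of 6 factors in each library (points) by group (x axis), with the mean and SD of 3 libraries (bars). Npm1 stays at the ON level in OFF24 and drops in OFF48, Ncl and Npm3 step down at each time, Nop56 has most of its fall by 24 h, and Ddx21 and Utp15 are higher in OFF48 than in OFF24 in every library.

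Npm1, Ncl, Npm3 and Rrp1b were called in OFF48 against OFF24 on leaving out any 1 library. Nop56 lost its call without OFF24 replicate 2 (edgeR adjusted p = 0.0587) or OFF48 replicate 3 (0.0504). Gar1 lost it without any 1 of 6 libraries and Mrto4 without any 1 of 5. Without OFF24 replicate 2, 4 members were called. The higher values of Utp15, by 0.48 ± 0.22 (edgeR adjusted p = 0.125), and of Ddx21, by 0.12 ± 0.12 (edgeR adjusted p = 0.501), did not pass the test.

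Over the 50 members, the log2 change at 24 h was a median of 84.2% of that at 48 h. The median share was 87.4% for snoRNP proteins, 83.1% for small-subunit factors, 82.8% for large-subunit factors and 69.6% for the multifunctional proteins. It was 4.05% for Npm1, 44.8% for Npm3 and 49.6% for Ncl. These shares are descriptions, since both changes rest on the same ON libraries.

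Other genes of ribosome assembly, 109 in 4 lists, were all tested. At 24 h 77 were called lower and 2 higher, against 17.4% and 17.8% of all tested genes. At 48 h 72 were called lower and 1 higher, against 23.9% and 23.4% of all tested genes. Their median log2 fold changes were -0.73 at 24 h and -0.65 at 48 h. Against these, the 50 members had medians of -1.08 and -1.36, a difference that was not tested. Members and lists were chosen with earlier results of these data known, so this difference cannot be separated from that choice. Of 42 other small-subunit genes 30 fell at 24 h and 26 at 48 h, led at 48 h by Rcl1 (-1.86), a processome protein, and Nat10 (-1.50), the acetyltransferase of the small-subunit RNA. Of 43 other large-subunit genes 30 fell at 24 h and 27 at 48 h, led by Rsl1d1 (-1.75) and Rpf2 (-1.63), which docks the 5S particle with Rrs1. Zfp622 (0.41) and Sbds (0.47), factors of the last steps in the cytoplasm, rose at 24 h. Of this list 0 genes were called higher with DESeq2 or in the deposited log2 table, and on leaving out any 1 of 5 libraries (ON replicates 1 and 2 and each OFF24 replicate) only 1 was.

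Among 10 other snoRNP genes, 7 fell at 24 h and 9 at 48 h, led by Ruvbl1 (-1.28), an ATPase, and Znhit3 (-1.24), both of the machinery that assembles box C/D particles. Pih1d1, of the R2TP complex in the same machinery, rose at 48 h (0.70). Of 14 genes of the RNA exosome and its cofactors, which trim precursor ends, 10 fell at each time, led at 48 h by Exosc2 (-1.74) and Mphosph6 (-1.28). Beside the falls in both lists, 17.4% of all tested genes were called lower at 24 h and 23.9% at 48 h. In OFF48 against OFF24, 6 of the 109 were called lower (5.5%) and 5 higher (4.59%). Of all tested genes, 11.2% were called lower and 9.99% higher, which are larger shares.

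**Figure D4:**
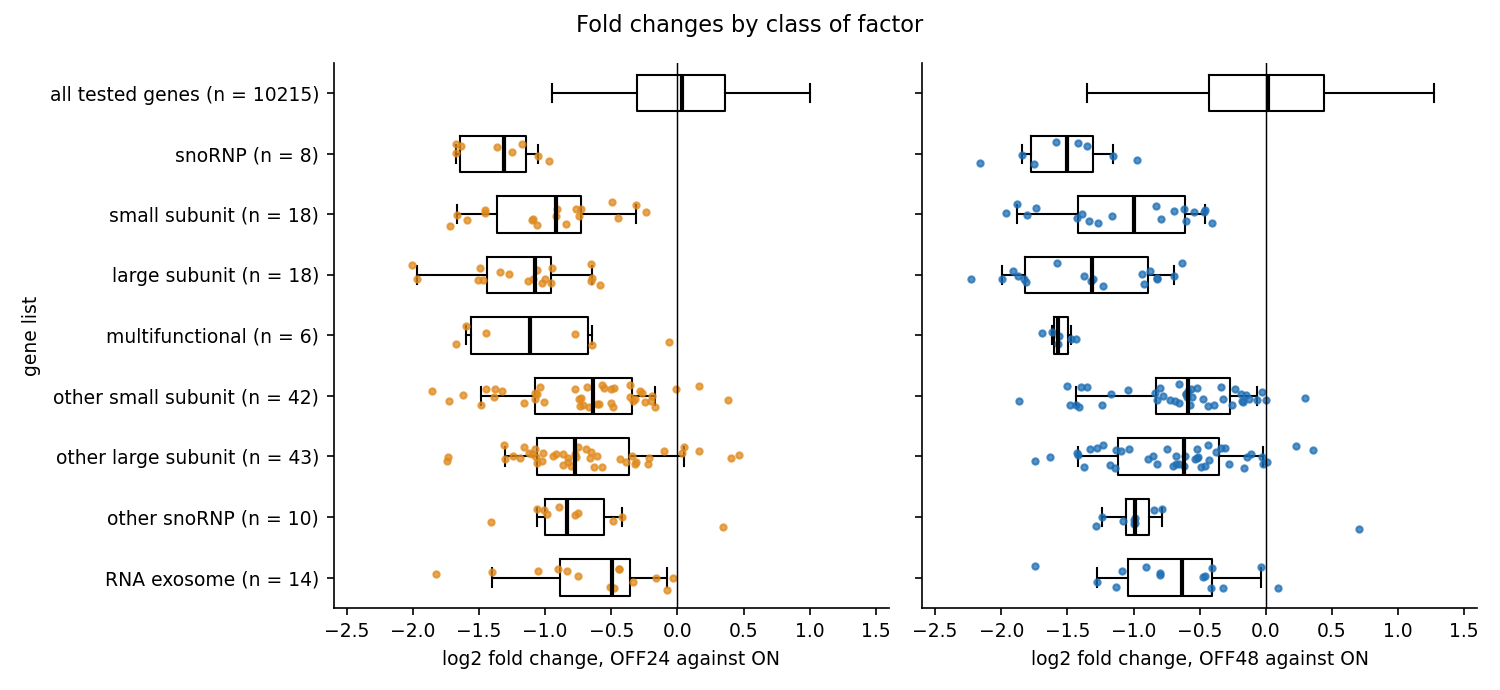
Log2 fold change against ON (x axis) at 24 h (left) and 48 h (right) for each class of factor, the 4 lists of other ribosome assembly genes and all tested genes (y axis). Points are genes, boxes the quartiles with the median, and whiskers the 5th and 95th percentile, and every class of the 50 members has its median below -0.9 while that of all genes is near 0.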

How the data were processed

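Sample titles gave the groups and replicate numbers. The deposited count table holds whole-number reads per gene symbol, not normalised. A second deposited table holds log2 values that the authors normalised with voom and limma, per its name, and served only as an alternative. The submitters' processing notes name HISAT2 2.0.4, Subread 1.5.0-p3 with featureCounts, cutadapt 1.5, limma 3.42.2 and mm10. For annotation, strand setting and multiply mapped reads, the settings are not given here by any source.

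Tests on the counts used edgeR 4.0.16 (R 4.3.3). The steps were filterByExpr by group, TMM scaling, and 1 robust quasi-likelihood fit with a mean per group over all 9 libraries (6 residual degrees of freedom). P-values were adjusted by Benjamini-Hochberg over the 10215 genes tested (threshold 0.05). The approximate SE is the size of the log2 fold change over the square root of F. The scripts were tested on simulated data. Alternatives included DESeq2 1.42.0 and limma 3.58.1. The members and lists were chosen with earlier results of these data known. Values in every library are given for the 2 largest and the smallest 48 h change of a class, members not called against ON at 1 or both times, members called in OFF48 against OFF24 with at least 1.5-fold change, and Ncl, Npm1, Fbl, Dkc1, Pes1 and Bop1. Non-members were named by size of fall or a call upward. Gene positions are from GENCODE on GRCm38, 3' ends were compared with blastn 2.17.0, and promoters are from RefSeq. Protein sequences were not used here.

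Replicate numbers were checked for pairing by correlating deviations from group means across genes. Same-numbered ON and OFF48 libraries correlated at 0.115, 0.406 and 0.198. All were positive, but the labels do not give pairs, and these values come from the data alone. The main fit did not use the replicate numbers, so its p-values are unpaired. Only the alternative with the replicate block used them. Differently numbered libraries reached similar values for ON 1 with OFF48 3 (0.124) and ON 3 with OFF48 1 (0.19), and only replicate 2 stood apart by number. For ON and OFF24 the values were 0.0762, 0.202 and 0.036, and for OFF24 and OFF48 0.0828, 0.177 and -0.0149. With the replicate block, Imp4 (edgeR adjusted p = 0.0154) and Utp20 (0.0319) were called lower at 48 h and Utp14a at 24 h (0.0406). That gave 48 calls at 24 h and 50 at 48 h, against 19.7% and 25.5% of all tested genes called lower.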

Additional observations from a re-analysis of the deposited data

Results flagged for a closer look

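For 7 members the change from ON differed between 24 h and 48 h, by the edgeR test of OFF48 against OFF24. That is 14% of the 50, and 11.2% of all tested genes were called lower in the same test, a share near it. The log2 difference of OFF48 from OFF24 was -1.51 for Npm1, -0.79 for Ncl, -0.79 for Npm3, -0.62 for Rrp1b, -0.50 for Gar1, -0.49 for Nop56 and -0.44 for Mrto4. The edgeR adjusted p was 1.52e-09 for Npm1, 2.02e-05 for Ncl, 0.000694 for Npm3, 0.00404 for Rrp1b, 0.0376 for Gar1, 0.00853 for Nop56 and 0.0376 for Mrto4. In each of the 7, all 3 OFF48 libraries lay below all 3 OFF24 libraries, which was so for 19.8% of all tested genes. The 7 were picked by a test on these same libraries, so the separation is no separate support. Of 19 alternatives, Gar1 lost its call in 9, Mrto4 in 7 and Nop56 in 2.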

How the results depend on the processing

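Under the alternatives run (other scalings, DESeq2, limma-voom, no filter, only the groups compared, the replicate block, the deposited log2 table, libraries left out), no single member reversed its direction in a call. On leaving out 1 library, 44 to 48 members were called lower at 24 h, 46 to 50 at 48 h, and 4 to 9 in OFF48 against OFF24 (7 with all libraries). With the replicate block, 48, 50 and 10 members were called lower, against 19.7%, 25.5% and 13.6% of all tested genes. Without the 12 members whose 3' end matches another gene, 4 of 4 snoRNP proteins were called at each time and 4 of 38 members in OFF48 against OFF24, where fewer genes were counted. Without the 5 members of less certain class, 7 of 7 snoRNP proteins, 14 of 16 small-subunit and 16 of 16 large-subunit factors were called lower at 24 h. In OFF48 against OFF24, 1 of 16 large-subunit factors was then called. Of all tested genes, 17.4% and 11.2% were called lower in these 2 comparisons. For the 109 other genes of ribosome assembly in OFF48 against OFF24, the calls of lower level were 6, with 10 under the replicate block, 3 in the deposited log2 table and 3 to 7 on leaving out 1 library. Their median of 0.04 became -0.0059 under upper quartile scaling. That of the other large-subunit genes (0.06) became -0.0013 in the deposited table and ran from -0.0172 (without OFF24 replicate 1) to 0.0731 on leaving out 1 library. That of the exosome genes (0.03) became -0.0093 under upper quartile scaling, -0.0216 without OFF24 replicate 2 and -0.0058 without OFF24 replicate 3, with a highest value of 0.094 on leaving out 1 library. The cause was not tested. With DESeq2, Gar1 (0.0925) and Mrto4 (0.0942) lost the call between OFF24 and OFF48, as adjusted p-values.

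Depth limits Rrp9, Bysl, Noc3l and Nle1, each with fewer than 10 counts in at least 1 library. Of the calls against ON, Imp3 at 24 h (lost in 8 settings) and Noc3l at 48 h (lost in 13) were the least stable. Gnl2 (0.0883), Noc4l (0.0686) and Pes1 (0.0544) lost the 24 h call in the deposited log2 table only, as limma adjusted p-values.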
